A study of Sus scrofa with 32 samples.

Results

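The genes described here are homeobox transcription factors that lie outside the HOX clusters. The list holds 39 genes, among 19550 protein-coding genes on placed chromosomes of the pig build Sscrofa11.1. Each was measured as the length of sequence under peaks within its gene span extended by 5 kb at either end, called its window here, in each of 24 peak lists. Of the 39 genes, 38 lay on placed chromosomes, and LHX3, which lies on an unplaced sequence, was not analysed here.

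Homeobox proteins bind DNA through a homeodomain and set the identity of regions and cell types in the embryo. Outside the HOX clusters they include patterning genes of the brain, the eye, the limb and the inner organs. Most of them are silent in any single cell type, where Polycomb complexes cover them with trimethylation of lysine 27 on histone H3 (H3K27me3), and a few are used in that lineage. Trimethylation of lysine 4 (H3K4me3) marks active and poised promoters. Acetylation of lysine 27 (H3K27ac) marks active promoters and enhancers and is written largely by the acetyltransferases CBP and p300. In the muscle lineage LBX1 is known for its part in the migrating limb muscle precursors of the mouse.

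The study profiled these 3 marks by CUT&Tag, in which an antibody to the mark brings a transposase to the chromatin it tags. The cells were porcine satellite cells, the resident stem cells of muscle. There were 4 conditions with 2 libraries per mark. The CBP 60 h cells had been given SGC-CBP30, an inhibitor of the bromodomains of CBP and p300, for 60 h in differentiation, and the WT 60 h cells were untreated at that time. The CBP 0 h cells had been given the inhibitor for 48 h in proliferation, and the WT 0 h cells were untreated. The labels give the dose as 5 with the unit uM/ml, which is not a usual concentration unit. They name proliferation as the treatment of the 60 h samples too, and some fields name C3H cells in RPMI medium although the organism is pig. Time and the split into CBP and WT were therefore taken from the sample titles. The titles do not give the inhibitor, its dose, the length of treatment or the culture stage. No allele or transgene is named for any group. Nothing states that libraries came from separate cultures, so the tests measure the spread between these libraries, which may be technical.

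The deposited files are peak lists with no read counts, and the read depth is unknown. Lists held 14898 to 17364 peaks for H3K4me3, 8969 to 23437 for H3K27ac and 1338 to 19317 for H3K27me3. The H3K27me3 lists differed most, with 13258 and 12336 peaks in CBP 60 h, 8922 and 6174 in WT 60 h, 19317 and 14723 in CBP 0 h and 1338 and 2660 in WT 0 h. H3K4me3 lay in both libraries at 7 of 7 measured genes of differentiating muscle in CBP 60 h and WT 60 h cells, and at 2 of 7 in CBP 0 h and WT 0 h cells. Its summed length at the 7 was 19.2 and 21.4 kb in CBP 60 h and 34.7 and 35 kb in WT 60 h cells. H3K27ac lay in both libraries at 2 of the 7 in CBP 60 h and at 4 in WT 60 h cells. The part of this difference in the comparisons at 60 h was not tested. Of 8 satellite cell genes H3K4me3 lay at 8, 7, 6 and 7 in CBP 60 h, WT 60 h, CBP 0 h and WT 0 h cells. It lay at 0 of 5 endothelial genes in all 4 groups and at 1 of 4 blood genes (PTPRC, CSF1R and CD3E were at 0). It lay at 4 of 6 fibroblast genes in every group, and at 3 of 5 adipocyte genes in CBP 60 h and 2 of 5 in the other groups. In such bulk lists, fewer cells carrying a mark and less of the mark per cell cannot be told apart.

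H3K27me3 was listed in some library at all of the 38 genes but 2, while 74.1% of all 19550 genes had none in any library. No base of H3K4me3 or H3K27ac was listed in any library at 13 of the 38, and all 13 held H3K27me3 in some library. These were the brain regulators DMBX1, LHX2, LHX5, EN2, OTX2 and EMX1, the heart factor NKX2-5, the thyroid and lung factor NKX2-1, the intestinal factor CDX2, the stomach factor BARX1, the spleen factor TLX1, the skull and limb factor ALX4, and BARX2. A further 11 genes also lacked H3K27ac in every library and held H3K4me3 in some, which makes 24 without H3K27ac. Over all 19550 genes, 30.4% had no H3K4me3 in any library and 41.3% no H3K27ac.

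Only EN1, a factor of the limb ectoderm and midbrain, and PRRX1, a factor of the limb mesenchyme, had no H3K27me3 in any of the 8 libraries. H3K27ac was listed in all 8 libraries at EN1, PRRX1 and LBX1. In WT 0 h cells 8 of the 38 genes had H3K27ac in both libraries: LBX1, EN1, PRRX1, SHOX2, PITX3, IRX1, IRX3 and IRX5. Of these, 6 had no H3K27me3 in either WT 0 h library, and IRX1 and IRX5, members of the Iroquois family, had both marks in their windows. EN1 (chromosome 15, 24402605 to 24408377) carried 8.02 ± 0.257 kb of H3K4me3 in CBP 60 h, 9.36 ± 0.334 kb in WT 60 h, 5.83 ± 0.101 kb in CBP 0 h and 7.71 ± 0.153 kb in WT 0 h cells (SD, n = 2 each). LBX1 (chromosome 14, 112283479 to 112287631) carried 5.88 ± 0.294, 7.02 ± 0.195, 6.27 ± 0.108 and 7.41 ± 0.0665 kb in CBP 60 h, WT 60 h, CBP 0 h and WT 0 h cells (SD, n = 2 each). IRX5 (chromosome 6, 30511263 to 30515015) had the longest H3K4me3 of the members in WT 0 h cells, with 9.41 ± 0.0764 kb, against 6.55 ± 0.0587 kb in CBP 0 h cells, where it was the longest too.

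**Figure D1:**
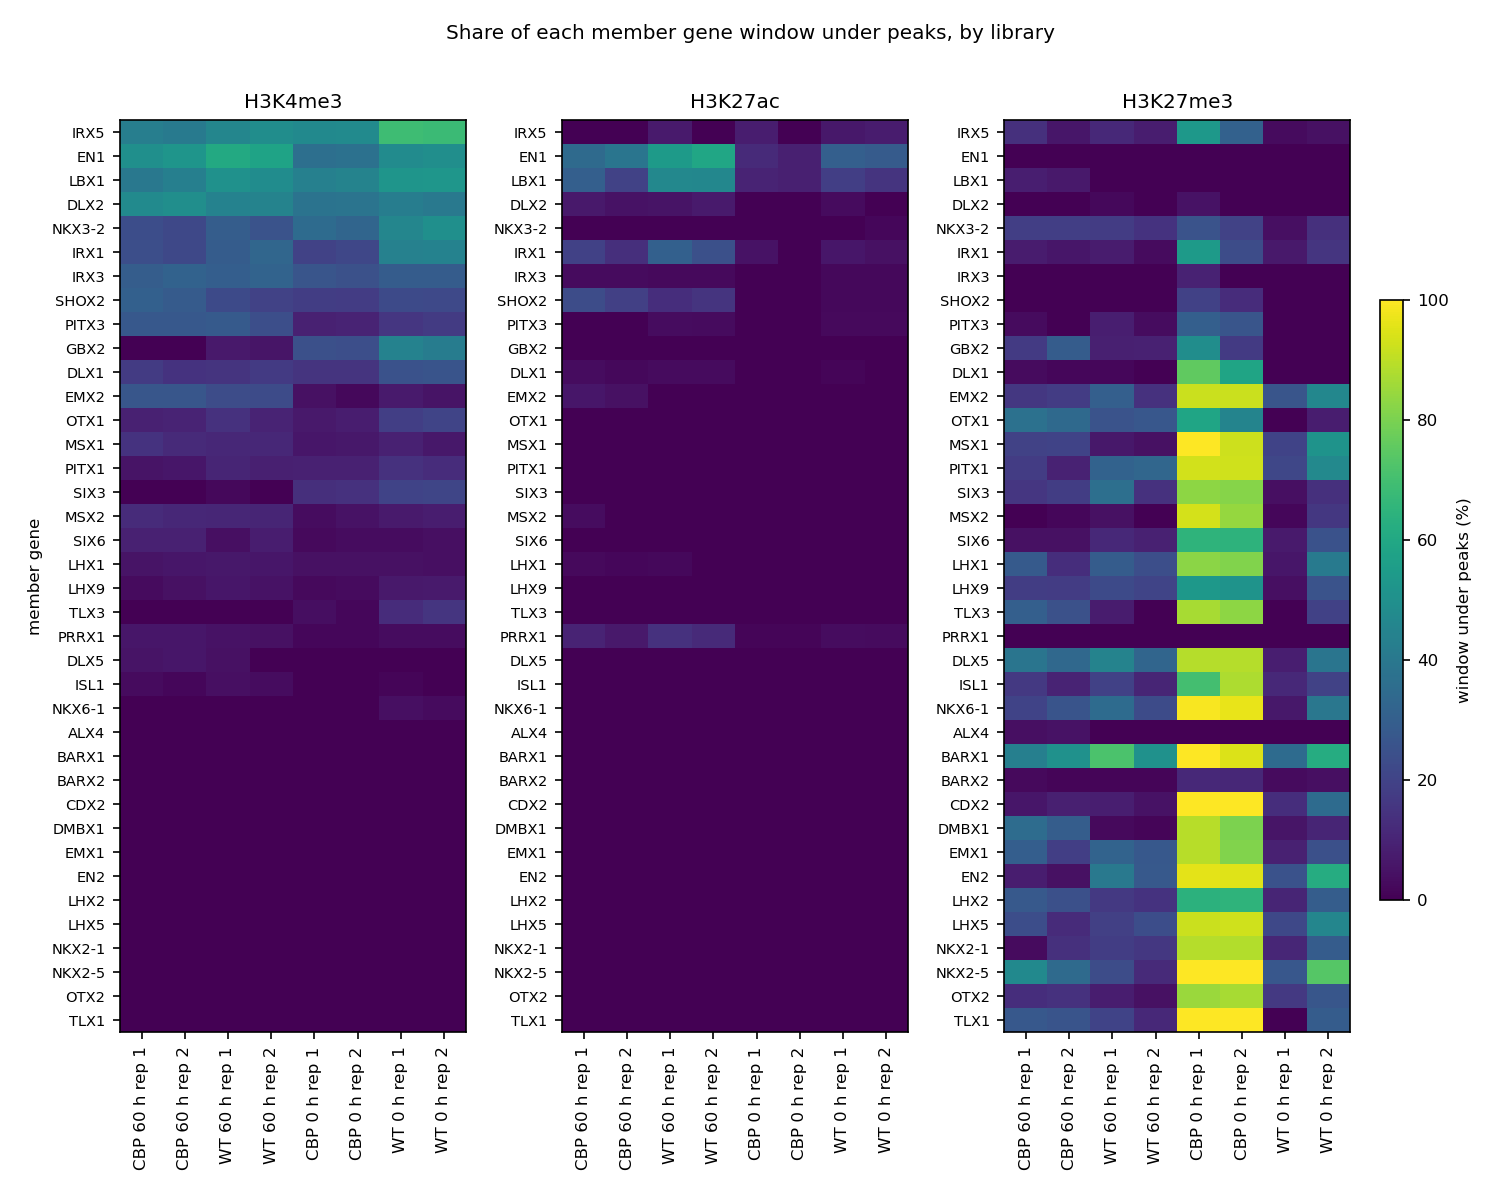
Percent of each gene window lying under peaks, by library, for the 3 marks; each row is 1 of the 38 genes, ordered by its mean share under H3K4me3, and each column is 1 library of CBP 60 h, WT 60 h, CBP 0 h or WT 0 h. The lowest 13 rows hold no H3K4me3 and no H3K27ac, and the H3K27me3 panel is brightest in the 2 CBP 0 h columns, where 24 genes have at least 50% of the window covered in both libraries.

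Not all of these windows hold 1 gene. Other protein-coding genes reached into 10 of them: SIX3 (LOC110260022), LHX1 (AATF), LHX9 (C10H1orf53), NKX6-1 (LOC102164773), OTX1 (EHBP1), IRX3 (LOC110261350), PITX3 (ELOVL3 and GBF1), DLX1 (METAP1D), BARX2 (LOC100516455) and SHOX2 (RSRC1). The windows of the neighbours DLX1 and DLX2 also overlap. In the LHX1 window every listed base of H3K4me3 and H3K27ac lay outside the LHX1 span, which held 0 kb of both in each library. All H3K27ac in the windows of PITX3 and DLX1 likewise lay outside the gene's own span.

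H3K27me3 in CBP 0 h against WT 0 h cells differed at 30 of 35 genes tested, the highest count among the comparisons. Genes here were compared by limma on log2 of the length in bp plus 500, over all genes that reached 200 bp in 2 or more libraries of a mark, and called at a Benjamini-Hochberg adjusted p below 0.05 over all of them. Length rose at 30 of the 35 and fell at 0 (0 at an unadjusted p below 0.05), while 77.2% of the 4203 genes tested were called higher and 0% lower. The members' median log2 change of 2.06 lay beside 2.18 for all genes tested. Summed over the 38 genes, H3K27me3 covered 435 and 407 kb in CBP 0 h and 56.8 and 154 kb in WT 0 h cells.

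TLX3, a factor that selects neurotransmitter type in neurons, had 87.1% and 83.1% of its window under H3K27me3 in CBP 0 h cells, against 0% and 19.3% in WT 0 h cells (11.2 and 10.7 kb against 0 and 2.49 kb). TLX1, which is needed for the spleen in the mouse, had its whole 17 kb window covered in both CBP 0 h libraries, against 0 and 4.92 kb in WT 0 h cells. The 2 WT 0 h libraries differed widely at both genes, and the CBP 0 h libraries lay above both of them. OTX1, a forebrain factor, had 10.5 and 8.05 kb in CBP 0 h, against 0 and 1.41 kb in WT 0 h cells, a log2 change of 3.31 ± 0.62 (SE; limma, adjusted p = 0.00396). MSX2, a limb and skull factor, had 15.1 and 13.6 kb in CBP 0 h, against 0.311 and 2.65 kb in WT 0 h cells, a log2 change of 3.21 ± 0.74 (SE; limma, adjusted p = 0.0087). The changes of TLX1 and TLX3 were 3.41 ± 1.05 and 3.23 ± 0.91 (SE; limma, adjusted p = 0.0252 and 0.0185).

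At 4 genes H3K27me3 was listed in both CBP 0 h libraries and in neither WT 0 h library. DLX1, a factor of forebrain interneurons, had 11.4 and 8.84 kb in CBP 0 h and 0 kb in both WT 0 h libraries (limma, adjusted p = 0.000277). PITX3, a factor of the lens and of dopamine neurons, had 6.46 and 5.6 kb in CBP 0 h and 0 kb in both WT 0 h libraries (limma, adjusted p = 0.00104). The other 2 were GBX2, which positions the boundary of midbrain and hindbrain and had 6.46 and 2.25 kb in CBP 0 h, and SHOX2, a limb and sinus node factor with 4.39 and 2.87 kb. SHOX2 held no H3K27me3 in any other group and passed the filter on length only through CBP 0 h. Of the DLX1 length, 3.4 and 1.67 kb lay within the gene's own span in the CBP 0 h libraries. Of the SHOX2 length, 1.44 and 0 kb lay within its own span in CBP 0 h replicates 1 and 2. No H3K27me3 was listed at EN1, PRRX1, LBX1 or ALX4 in either group at 0 h.

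The covered stretches were also wide. At least 50% of the window lay under H3K27me3 in both libraries at 24 of 38 genes in CBP 0 h and at 0 of 38 in WT 0 h cells, against 300 (1.53%) and 0 of all 19550 genes. A peak of given width fills a larger share of a shorter window, and the genes were not matched for window length. The whole window was covered in both CBP 0 h libraries at TLX1, NKX2-5 and CDX2. A peak of 35.8 and 35.4 kb began near the upper end of DMBX1 in the CBP 0 h lists (chromosome 6, 164978346 to 165014153 in replicate 1) and lay mostly beyond the window. In that window the widest in WT 0 h cells were 0.743 and 0.777 kb. DLX5, a bone and limb factor, lay under 1 peak of 35.2 and 35.4 kb in CBP 0 h cells (chromosome 9, 76611927 to 76647166 in replicate 1), against 0.605 and 2.23 kb in WT 0 h cells. That peak covered the DLX5 span and also ran out of its window. Over all members the widest H3K27me3 peak in a WT 0 h list was 7.77 kb, at NKX2-5.

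**Figure D2:**
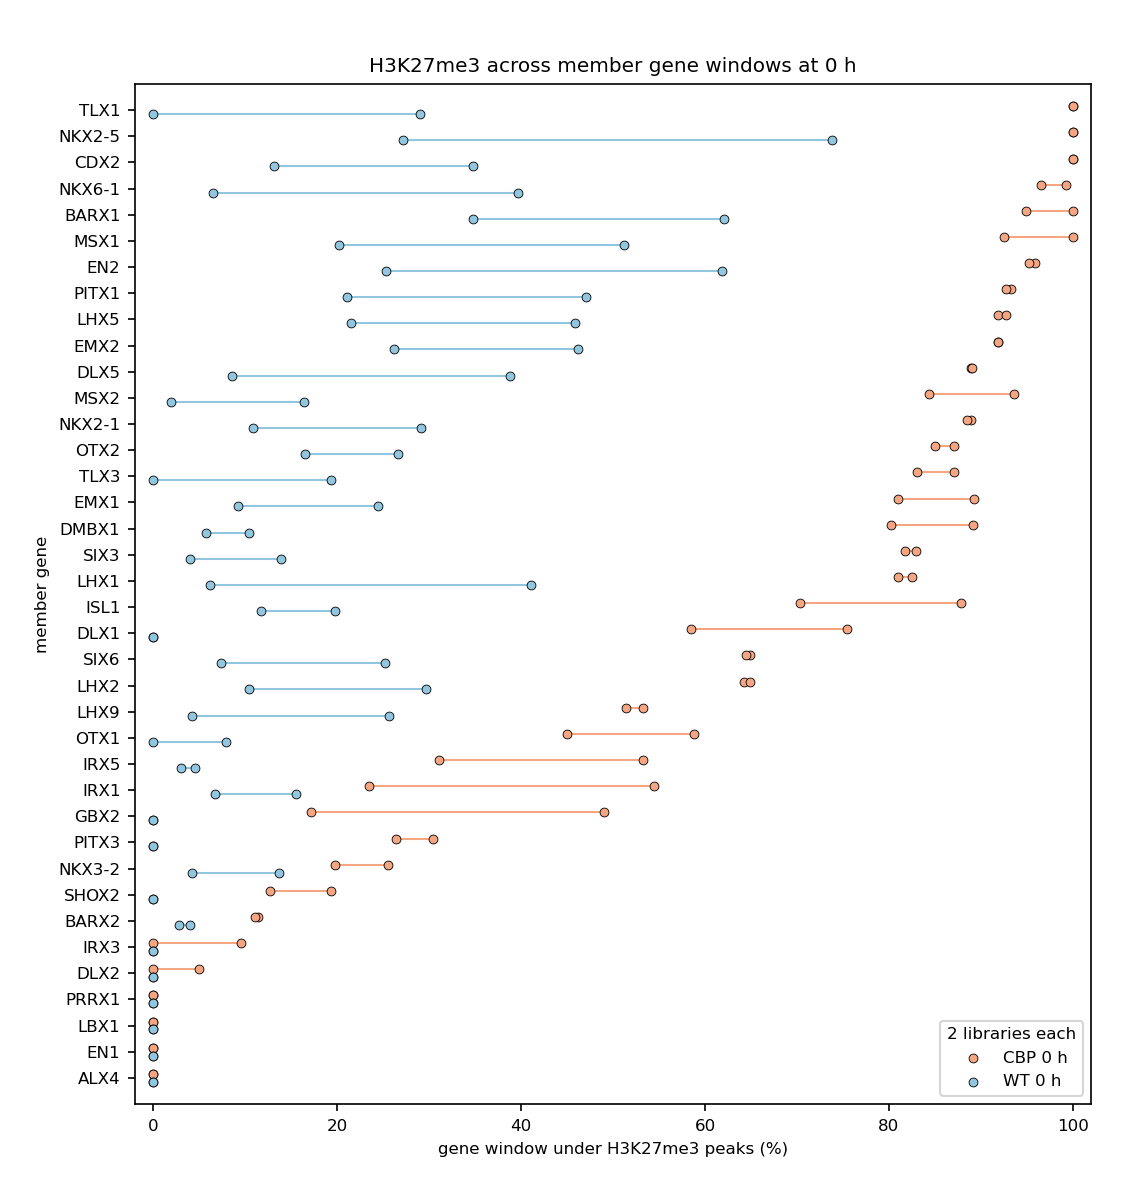
Percent of each gene window under H3K27me3 peaks at 0 h, 1 row per gene; points are libraries, orange for CBP 0 h and blue for WT 0 h, with a line joining the 2 libraries of a group. The CBP 0 h points reach 100% at TLX1, NKX2-5 and CDX2, while WT 0 h libraries differ widely from each other, for example 27.1% and 73.8% at NKX2-5.

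The CBP 0 h lists were 19317 and 14723 peaks long and the WT 0 h lists 1338 and 2660. With each H3K27me3 list held to its 1338 highest-ranked peaks, 22 of 31 genes tested were higher in CBP 0 h cells and 0 lower. Of all 1549 genes tested that way, 697 were called higher and 36 lower. The median log2 change was then 1.99 for the members and 1.52 for all genes. Quantile scaling, which gives the 8 libraries of a mark one distribution of lengths, moved the median of all genes to -0.11. After it 3 of the 35 genes were called higher (DLX1, PITX3 and SHOX2) and 10 lower, where 11.8% of all genes were called higher and 17.9% lower. SHOX2 passed the filter on length only through CBP 0 h, so its call adds nothing to its lengths. Of those 10, 5 had been called higher on the lengths as listed (BARX1, EMX2, IRX1, MSX1 and NKX3-2), and ALX4 and LBX1 held no base at 0 h in either group. The calls of TLX1, OTX1, TLX3 and MSX2 were lost under that scaling (limma, adjusted p = 0.243, 0.289, 0.395 and 0.554). Leaving out either CBP 0 h library left 1 library in that group, and the members then lost a larger part of their calls than all genes did. Without CBP 0 h replicate 1 or 2 the log2 change was 3.41 in both cases at TLX1 and 3.20 and 3.26 at TLX3. Neither gene was then called. TLX3 was not called without WT 0 h replicate 1 either (limma, adjusted p = 0.0537), and its log2 change there was 1.94. With 100 bp in place of 500 added before taking logs, TLX1, TLX3 and MSX2 had an adjusted p of 0.055 to 0.0688.

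H3K27me3 in WT 60 h against WT 0 h cells differed at 4 of the 35 genes, 1 higher and 3 lower, where 20.9% of all genes tested were called higher and 0.619% lower. MSX1, which keeps limb myoblasts undifferentiated in the mouse, had 0.91 and 0.612 kb in WT 60 h and 2.83 and 7.17 kb in WT 0 h cells, a log2 change of -2.01 ± 0.43 (SE; limma, adjusted p = 0.0251). OTX2, a forebrain and eye factor, had 1.6 and 0.952 kb in WT 60 h and 3.37 and 5.45 kb in WT 0 h cells (log2 change -1.46 ± 0.33; limma, adjusted p = 0.0297). DMBX1 had 0.548 and 0.309 kb in WT 60 h and 1.19 and 2.14 kb in WT 0 h cells (log2 change -1.20 ± 0.32; limma, adjusted p = 0.0476). OTX1 moved the other way, with 4.61 and 4.86 kb in WT 60 h and 0 and 1.41 kb in WT 0 h cells (log2 change 2.42 ± 0.62; limma, adjusted p = 0.0417).

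The members' median log2 change was 0.00, beside 0.58 for all genes. After quantile scaling 1 of the 35 was called higher and 13 lower, against 13.0% and 20.7% of all genes. Of those 13, ALX4, LBX1 and SHOX2 held no base of H3K27me3 in any WT library. With peaks limited to a -log10 q of 5 or more, 0 of 29 genes were called by limma, and 0 at an unadjusted p below 0.05. That filter left 23 and 4 H3K27me3 peaks in the WT 60 h lists and 0 and 28 in the WT 0 h lists, so it could not test these genes. With WT 60 h replicate 1 or 2 left out the count was 0 (limma, 8 and 6 at an unadjusted p below 0.05), it was 1 without either CBP 60 h library, and 8 without WT 0 h replicate 2. None of the 4 genes above was called without any 1 of these 60 h libraries, and OTX2 and DMBX1 were not called without WT 0 h replicate 2. The calls of OTX1 and DMBX1 were also lost without either CBP 0 h library (limma, adjusted p of 0.0661 to 0.0685). With lists of equal length OTX1 and DMBX1 were not called (limma, adjusted p = 0.19 and 0.0631). With the WT 0 h library that had none of the mark at OTX1 left out, its log2 change was 1.45.

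At 60 h the inhibitor comparison of H3K27me3 gave 3 of 35 genes higher and 1 lower in CBP cells, where 12.1% of all genes were called higher and 2.62% lower. DMBX1 had 7.31 and 6.08 kb in CBP 60 h and 0.548 and 0.309 kb in WT 60 h cells, a log2 change of 2.96 ± 0.32 (SE; limma, adjusted p = 0.0076). ALX4 had 1.04 and 1.2 kb in CBP 60 h, against 0 kb in both WT 60 h libraries (limma, adjusted p = 0.00664). LBX1 had 1.19 and 0.985 kb in CBP 60 h, against 0 kb in both WT 60 h libraries (limma, adjusted p = 0.00664), and in the other 6 libraries no H3K27me3 was listed at either gene. ALX4 and LBX1 thus passed the filter on length only through the CBP 60 h libraries, and their calls add nothing to these lengths. EN2, a midbrain and cerebellum factor, had 1.34 and 0.769 kb in CBP 60 h and 6.64 and 4.58 kb in WT 60 h cells (log2 change -1.98 ± 0.47; limma, adjusted p = 0.0436).

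The median log2 change was -0.02 for the members and 0.33 for all genes. Quantile scaling gave 4 of the 35 higher and 6 lower, where 11.8% of all genes were called higher and 8.30% lower. A -log10 q of 5 or more left 24 and 18 H3K27me3 peaks in the CBP 60 h lists and 23 and 4 in the WT 60 h lists, too few to test these genes. With lists of equal length DMBX1 had a log2 change of 0.75 and EN2 of 0.00, and neither was called (limma, adjusted p = 0.474 and 1). Leaving out either CBP 60 h library left 1 library in that group. Calls were then lost among all genes tested, not only among the members. DMBX1 had an adjusted p of 0.0502 without WT 60 h replicate 2, and of 0.0863 and 0.0722 without CBP 60 h replicates 1 and 2. EN2 was no longer called without any 1 of the CBP 0 h, WT 60 h and CBP 60 h libraries (limma, adjusted p of 0.0629 to 0.213), and ALX4, LBX1, DMBX1 and EN2 were all uncalled or untested with peaks limited to a -log10 q of 5 or more.

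H3K4me3 in WT 60 h against WT 0 h cells moved both ways among the members. It was tested at 25 genes, of which 7 rose and 10 fell, while 42.2% of the 13394 genes tested were called higher and 5.85% lower. SIX3, a forebrain and eye factor (chromosome 3, 95521330 to 95527004), had 0.329 and 0 kb in WT 60 h and 3.14 and 3.29 kb in WT 0 h cells, a log2 change of -2.53 ± 0.21 (SE; limma, adjusted p = 0.000277). GBX2 (chromosome 15, 136029393 to 136032568) had 0.89 and 0.737 kb in WT 60 h and 5.85 and 5.52 kb in WT 0 h cells, a log2 change of -2.24 ± 0.07 (SE; limma, adjusted p = 7.37e-06). TLX3 (chromosome 16, 52823839 to 52826717) had 0 kb in both WT 60 h libraries and 1.64 and 1.99 kb in WT 0 h cells (limma, adjusted p = 0.000137).

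NKX6-1, a factor of insulin-producing and motor neuron lineages, likewise had 0 kb in both WT 60 h libraries and 0.702 and 0.452 kb in WT 0 h cells (limma, adjusted p = 0.0012). It held no H3K4me3 in any other group and passed the filter on length only through WT 0 h. EMX2, a cortex and kidney factor (chromosome 14, 127649675 to 127656972), went the other way, with 4.05 and 3.96 kb in WT 60 h and 1.24 and 0.921 kb in WT 0 h cells (log2 change 1.52 ± 0.20; limma, adjusted p = 0.00146). ISL1, a motor neuron and heart factor, had 0.882 and 0.703 kb in WT 60 h and 0.255 and 0 kb in WT 0 h cells (log2 change 1.07 ± 0.21; limma, adjusted p = 0.00772). The other 5 that rose were PITX3, PRRX1, LHX1, MSX2 and EN1, by 0.26 to 0.59 on the log2 scale. At LHX1 all of the length lay outside the LHX1 span. The other 6 that fell were NKX3-2, OTX1, DLX1, IRX5, IRX1 and PITX1, with log2 changes of -0.73 to -0.40.

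**Figure D3:**
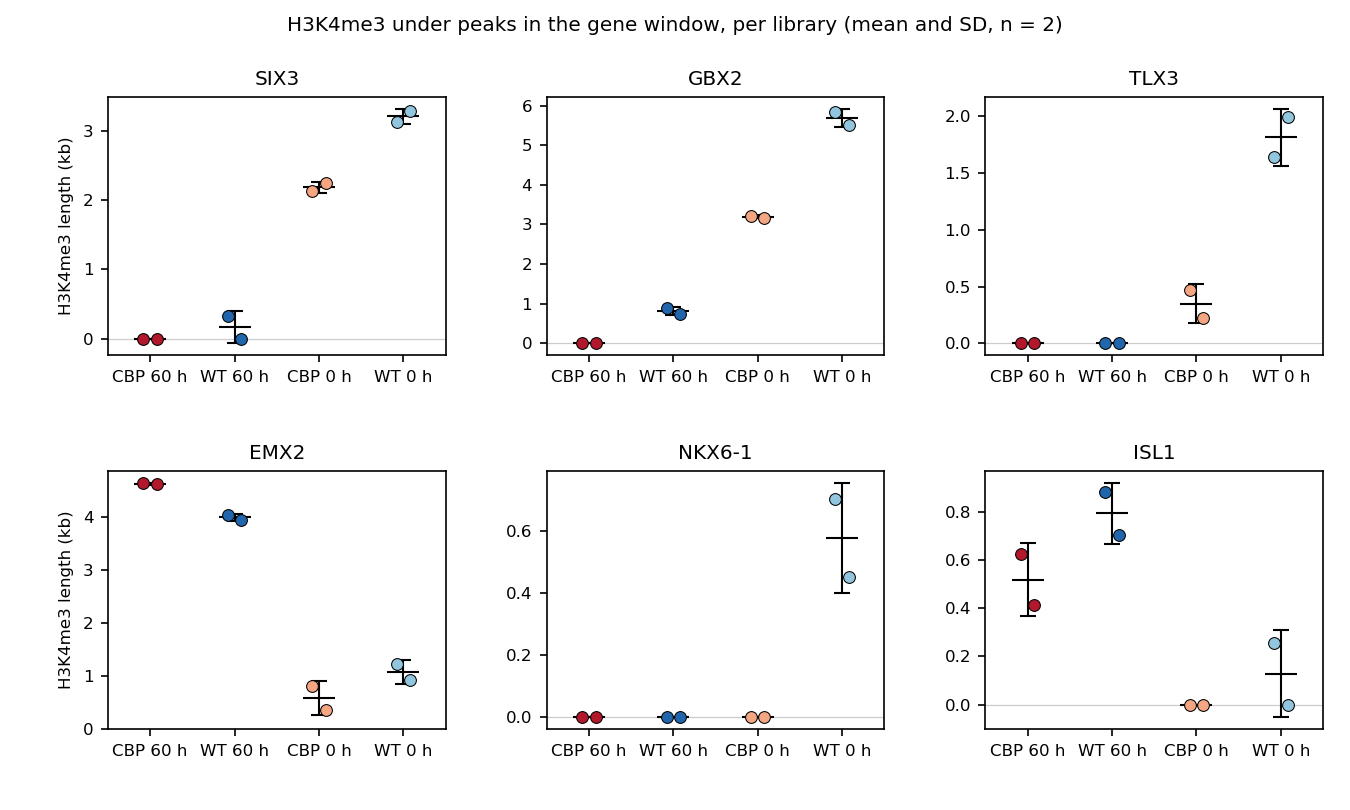
H3K4me3 length in kb in the windows of the 6 genes with the largest called difference between WT 60 h and WT 0 h; points are libraries of CBP 60 h, WT 60 h, CBP 0 h and WT 0 h, and bars are the mean and SD (n = 2 each). SIX3, GBX2, TLX3 and NKX6-1 are at or near 0 at 60 h, and EMX2 lies at 3.96 kb or more in the 60 h libraries and at 1.24 kb or less in the 0 h libraries.

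The members' median log2 change was -0.06, beside 0.18 for all genes tested. Quantile scaling moved the median of all genes to -0.07 and gave 3 of the 25 higher and 13 lower, against 18.1% and 27% of all genes. All 10 genes that fell were lower under it too, among them NKX6-1, which passed the filter on length only through WT 0 h. Of the 7 that rose, EMX2, PITX3 and PRRX1 were still called. ISL1 was not (adjusted p = 0.0713), nor was it without WT 60 h replicate 1 (limma, adjusted p = 0.0533).

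CBP 0 h cells had shorter H3K4me3 than WT 0 h cells at 16 of the 25 genes and longer at 0 (0 at an unadjusted p below 0.05), where 1.19% of all genes were called higher and 41.7% lower. Summed over the members it covered 58.7 and 58.8 kb in CBP 0 h and 87.9 and 88.2 kb in WT 0 h cells. TLX3 had 0.473 and 0.226 kb in CBP 0 h and 1.64 and 1.99 kb in WT 0 h cells (log2 change -1.46 ± 0.16; limma, adjusted p = 0.000999). OTX1 had 1.25 and 1.42 kb in CBP 0 h and 3.31 and 3.65 kb in WT 0 h cells (log2 change -1.12 ± 0.14; limma, adjusted p = 0.00182), of which 0.388 and 0.384 kb against 1.03 and 1.32 kb lay in the gene's own span.

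IRX1 had 3.02 and 3.27 kb in CBP 0 h and 6.78 and 6.84 kb in WT 0 h cells (log2 change -1.01 ± 0.08; limma, adjusted p = 0.000384). LHX9, a gonad factor, had 0.841 and 0.911 kb in CBP 0 h and 2.17 and 2.29 kb in WT 0 h cells (log2 change -0.99 ± 0.14; limma, adjusted p = 0.00292). GBX2 had 3.22 and 3.17 kb in CBP 0 h and 5.85 and 5.52 kb in WT 0 h cells (log2 change -0.74 ± 0.07; limma, adjusted p = 0.000573). NKX6-1 had 0 kb in both CBP 0 h libraries and 0.702 and 0.452 kb in WT 0 h cells (limma, adjusted p = 0.00162), the only libraries through which it passed the filter. Both CBP 0 h libraries lay below both WT 0 h libraries at each of these 6 genes. The other 10 fell by 0.23 to 0.72 on the log2 scale.

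The members' median was -0.47 and that of all genes -0.19. After quantile scaling, which moved the median of all genes to 0.06, 2 of the 25 were called higher (DLX2 and LHX1, the latter outside its own span) and 10 lower, against 16.0% and 13.6% of all genes. TLX3, OTX1, IRX1, LHX9 and GBX2 were among those 10. NKX6-1 was too, but it passed the filter on length only through WT 0 h, so its call adds nothing to its lengths.

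At 60 h H3K4me3 differed between CBP and WT cells at 7 of the 25 genes, 2 higher and 5 lower, where 10.3% of all genes were called higher and 7.36% lower. GBX2 had 0 kb in both CBP 60 h libraries and 0.89 and 0.737 kb in WT 60 h cells (limma, adjusted p = 0.000128). PITX1, which sets hindlimb identity, had 1.18 and 1.37 kb in CBP 60 h and 2.25 and 1.97 kb in WT 60 h cells (log2 change -0.56 ± 0.08; limma, adjusted p = 0.00691). SHOX2 had 6.94 and 6.52 kb in CBP 60 h and 5.13 and 4.52 kb in WT 60 h cells (log2 change 0.44 ± 0.06; limma, adjusted p = 0.00585). Both CBP 60 h libraries lay above both WT 60 h libraries at SHOX2 and below them at PITX1.

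PRRX1 had 5.19 and 5.14 kb in CBP 60 h and 4.28 and 3.8 kb in WT 60 h cells (log2 change 0.32 ± 0.06; limma, adjusted p = 0.0129). IRX1 had 3.72 and 3.33 kb in CBP 60 h and 4.46 and 5.12 kb in WT 60 h cells (log2 change -0.39 ± 0.08; limma, adjusted p = 0.0196). LBX1 had 5.67 and 6.09 kb in CBP 60 h and 7.16 and 6.89 kb in WT 60 h cells (log2 change -0.24 ± 0.04; limma, adjusted p = 0.0161). The median log2 change was -0.02 for the members and 0.04 for all genes. GBX2, at 0 in every 60 h library once lists were of equal length or a -log10 q of 5 or more was required, was then not called. IRX1 was not called under either setting, LBX1 was not called under the second, and SHOX2 was not called within 5 kb of both gene ends (limma, adjusted p of 0.0684 to 0.216). The count fell to 4 without CBP 60 h replicate 1. IRX1 was not called without WT 60 h replicate 2 or CBP 60 h replicate 2, PRRX1 without either CBP 60 h library, and LBX1 without either WT 60 h library or CBP 60 h replicate 1 (limma, adjusted p of 0.0547 to 0.0926).

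H3K27ac passed the filter at 12 of the 38 genes, and in WT 60 h against WT 0 h cells it rose at 7 of them and fell at 0 (0 at an unadjusted p below 0.05). Over all 10294 genes tested 46.8% were called higher and 10.6% lower. The 7 were the limb mesenchyme factors PRRX1 and SHOX2 with LBX1, EN1, IRX1, DLX1 and DLX2. At DLX1 all of the length lay outside the DLX1 span. PRRX1 (chromosome 4, 80427682 to 80502689) had 12.3 and 10.1 kb in WT 60 h and 2.72 and 2.44 kb in WT 0 h cells, a log2 change of 1.92 ± 0.20 (SE; limma, adjusted p = 0.000977). SHOX2 (chromosome 13, 97879586 to 97892276) had 2.96 and 3.38 kb in WT 60 h and 0.501 and 0.491 kb in WT 0 h cells, a log2 change of 1.88 ± 0.13 (SE; limma, adjusted p = 0.000172). Of the WT 60 h length at SHOX2, 2.2 and 2.1 kb lay in its own span.

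LBX1 had 6.63 and 6.53 kb in WT 60 h and 2.65 and 2.1 kb in WT 0 h cells (log2 change 1.31 ± 0.21; limma, adjusted p = 0.00415). EN1 had 8.59 and 9.31 kb in WT 60 h and 4.77 and 4.54 kb in WT 0 h cells (log2 change 0.87 ± 0.14; limma, adjusted p = 0.00395). IRX1 had 4.73 and 3.78 kb in WT 60 h and 0.907 and 0.709 kb in WT 0 h cells (log2 change 1.86 ± 0.46; limma, adjusted p = 0.0192). DLX2 had 0.729 and 1 kb in WT 60 h and 0.423 and 0 kb in WT 0 h cells (log2 change 1.0 ± 0.31; limma, adjusted p = 0.0407). The WT 60 h libraries lay above the WT 0 h libraries at each of these genes.

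**Figure D4:**
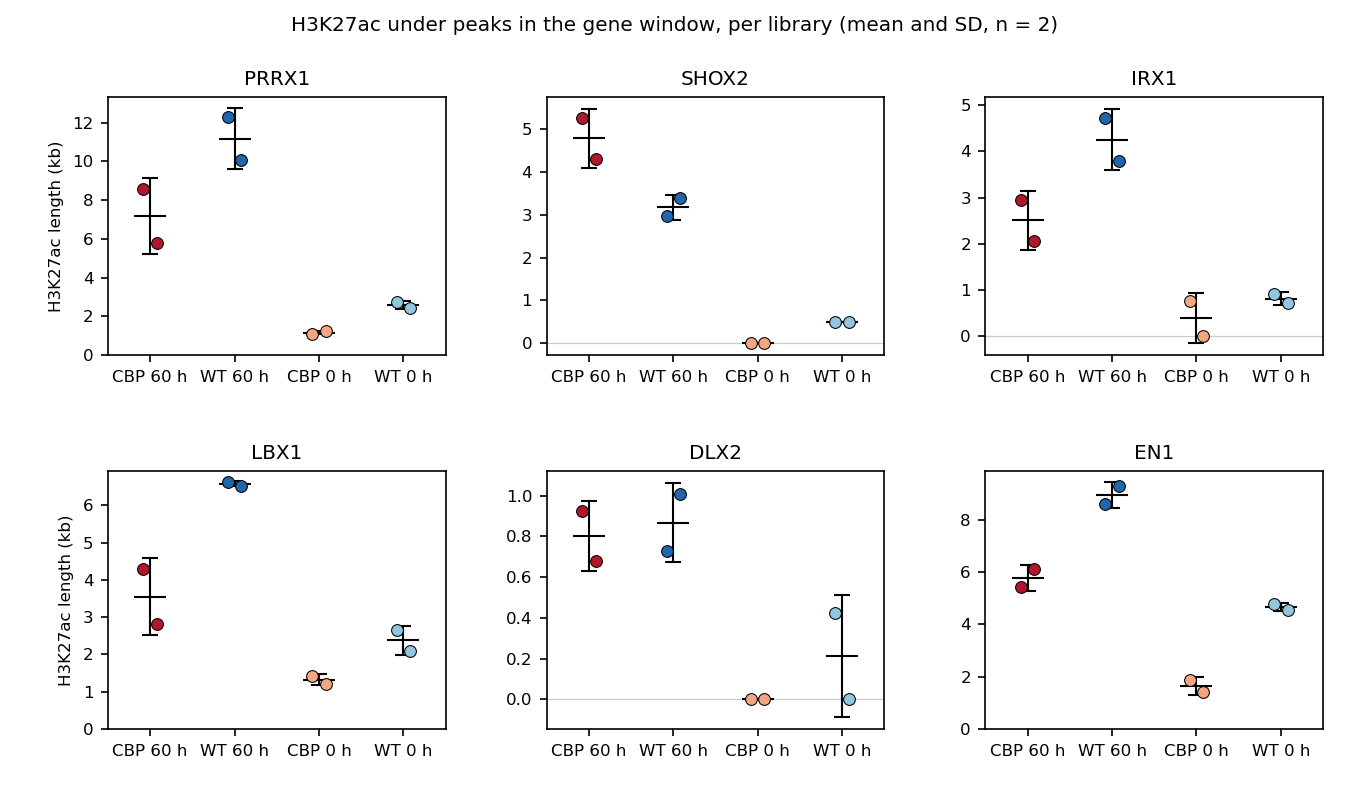
H3K27ac length in kb in the windows of the 6 genes with the largest called difference between WT 60 h and WT 0 h; points are libraries of CBP 60 h, WT 60 h, CBP 0 h and WT 0 h, and bars are the mean and SD (n = 2 each). WT 60 h lies above WT 0 h in all 6 panels before scaling, and SHOX2 is the panel in which CBP 60 h (5.26 and 4.3 kb) lies above WT 60 h (2.96 and 3.38 kb).

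The 6 fibroblast marker genes summed to 43.2 and 33.1 kb of H3K27ac in WT 60 h and 5.87 and 4.14 kb in WT 0 h cells, with PDGFRA and LUM at 0 in both groups. The satellite cell genes summed to 50.6 and 45.8 kb in WT 60 h and 20.7 and 19 kb in WT 0 h cells. The differentiating muscle genes summed to 13.9 and 11 kb in WT 60 h and 1.64 and 0.742 kb in WT 0 h cells. The part of any of these cell types in the values of PRRX1 and SHOX2 was not tested. The median log2 change was 0.77 for the members and 0.69 for all genes tested. Quantile scaling moved the median of all genes to 0.01 and left 3 genes called higher (LBX1, PRRX1 and SHOX2) and 1 lower (PITX3, outside its own span), against 20.7% and 20.9% of all genes. IRX1 was also not called without any 1 of the 4 WT libraries (limma, adjusted p of 0.0648 to 0.0988). DLX2 was not called without any 1 library other than WT 0 h replicate 1 (limma, adjusted p of 0.0614 to 0.164), and leaving out WT 0 h replicate 2 or WT 60 h replicate 1 gave a count of 4. With a -log10 q of 5 or more PRRX1 and LBX1 were not called (limma, adjusted p = 0.284 and 0.0633).

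In CBP 0 h against WT 0 h cells H3K27ac fell at 5 of the 12 genes and rose at 0 (0 at an unadjusted p below 0.05), where 1.40% of all genes were called higher and 32.6% lower. EN1 had 1.88 and 1.41 kb in CBP 0 h and 4.77 and 4.54 kb in WT 0 h cells (log2 change -1.27 ± 0.14; limma, adjusted p = 0.00219). PRRX1 had 1.1 and 1.23 kb in CBP 0 h and 2.72 and 2.44 kb in WT 0 h cells (log2 change -0.89 ± 0.20; limma, adjusted p = 0.0235). The other 3 had no H3K27ac in either CBP 0 h library.

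In WT 0 h cells SHOX2 had 0.501 and 0.491 kb (limma, adjusted p = 0.00353), PITX3 0.556 and 0.543 kb (0.00138) and IRX3 0.316 and 0.283 kb (0.00359). The fibroblast marker genes summed to 2.06 and 1.29 kb of H3K27ac in CBP 0 h and 5.87 and 4.14 kb in WT 0 h cells. The satellite cell genes summed to 8.9 and 5.87 kb in CBP 0 h and 20.7 and 19 kb in WT 0 h cells. The part of either cell type in the values of the members was not tested. The median log2 change was -0.68 for the members and -0.46 for all genes. The CBP 0 h lists held 10972 and 8969 H3K27ac peaks and the WT 0 h lists 19531 and 17338. With lists of equal length 1 of 9 genes tested was called lower and 0 higher, where 1327 of all 7725 genes were called lower and 463 higher. After quantile scaling PITX3 was the 1 gene of 12 called, and it was lower. Of all 10294 genes 1598 were then called lower and 917 higher. All H3K27ac in the PITX3 window, which ELOVL3 and GBF1 reach into, lay outside the PITX3 span. PRRX1 was also not called without any 1 of the 4 libraries at 0 h (limma, adjusted p of 0.0751 to 0.123).

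At 60 h H3K27ac was higher in CBP than in WT cells at 2 of the 12 genes and lower at 3, where 3.03% of all genes were called higher and 45.8% lower. EMX2 had 1.06 and 0.809 kb in CBP 60 h cells and 0 kb in the other 6 libraries (limma, adjusted p = 0.000215). EMX2 passed the filter on length only through the CBP 60 h libraries, so its call adds nothing to these lengths. SHOX2 had 5.26 and 4.3 kb in CBP 60 h and 2.96 and 3.38 kb in WT 60 h cells (log2 change 0.52 ± 0.13; limma, adjusted p = 0.0209). Both genes also had longer H3K4me3 in CBP 60 h than in WT 60 h libraries, with a call at SHOX2 and none at EMX2 (4.65 and 4.63 against 4.05 and 3.96 kb).

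LBX1 had 4.29 and 2.81 kb in CBP 60 h and 6.63 and 6.53 kb in WT 60 h cells (log2 change -0.83 ± 0.21; limma, adjusted p = 0.0231). EN1 had 5.42 and 6.12 kb in CBP 60 h and 8.59 and 9.31 kb in WT 60 h cells (log2 change -0.59 ± 0.14; limma, adjusted p = 0.0178). PITX3 had 0 kb in both CBP 60 h libraries and 0.734 and 0.589 kb in WT 60 h cells (limma, adjusted p = 0.000419), all of it outside the gene's own span. The fibroblast marker genes summed to 12.9 and 9.82 kb in CBP 60 h and 43.2 and 33.1 kb in WT 60 h cells. The satellite cell genes summed to 27.8 and 22.8 kb in CBP 60 h and 50.6 and 45.8 kb in WT 60 h cells. The part of either cell type in the values of the members was not tested. The median was -0.33 for the members and -0.72 for all genes.

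The split turned under quantile scaling, which moved the median of all genes to 0.03 and gave 6 genes higher (EMX2, SHOX2, DLX1, DLX2, IRX3 and LHX1) and 0 lower, against 11.6% and 13.4% of all genes. At DLX1 and LHX1 all of the H3K27ac lay outside the gene's own span. SHOX2 was at -0.06 and not called with lists of equal length or a -log10 q of 5 or more (limma, adjusted p = 0.862 and 0.79). EN1, LBX1 and PITX3 were not called with lists of equal length (limma, adjusted p = 0.0715, 0.357 and 0.304). Left-out libraries also ended calls. LBX1 was not called without either WT 60 h library or CBP 60 h replicate 2 (limma, adjusted p of 0.0549 to 0.11), EN1 without either WT 60 h library or CBP 60 h replicate 1 (0.0655 to 0.092), and SHOX2 without either WT 60 h library (0.0524 and 0.114). The count was 3, 2 and 3 without WT 60 h replicate 1, WT 60 h replicate 2 and CBP 60 h replicate 2.

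**Figure D5:**
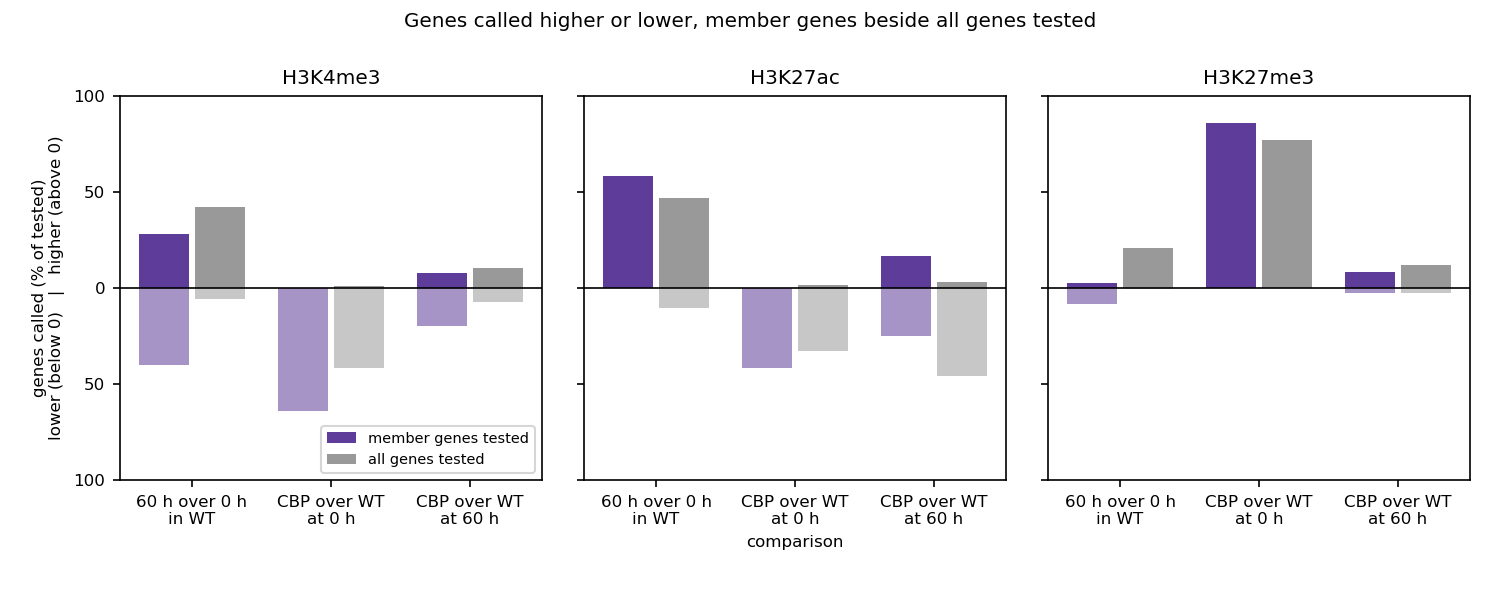
Percent of genes tested that were called higher (above 0) or lower (below 0) in 3 comparisons of each mark, for the homeobox genes described here (purple) and all genes tested (grey), on the lengths as listed. For H3K27me3 in CBP over WT at 0 h the members' bar stands beside 77.2% of all genes; under quantile scaling the members' split there turns to 3 higher and 10 lower, and for H3K27ac in CBP over WT at 60 h to 6 higher and 0 lower.

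The effect of the inhibitor was also set against itself between the 2 times. The effect at 60 h minus that at 0 h was higher at 11 and lower at 1 of 25 genes for H3K4me3, where 37.9% of all genes were called higher and 3.56% lower. For H3K27ac it was higher at 4 of 12 genes and lower at 0 (0 at an unadjusted p below 0.05), beside 11.5% and 18.9% of all genes. For H3K27me3 it was higher at 2 and lower at 15 of 35 genes, beside 3.95% and 53.0% of all genes. PRRX1 differed in H3K4me3, with a log2 change between CBP and WT of 0.32 at 60 h and -0.72 at 0 h (difference 1.04 ± 0.08; limma, adjusted p = 0.000632). Quantile scaling gave 5 higher and 4 lower for H3K4me3 (11.0% and 12.2% of all genes) and 5 higher and 3 lower for H3K27me3 (11.6% and 7.68% of all genes). PRRX1 was called higher in H3K4me3 under it too.

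H3K4me3 and H3K27me3 lay on shared bases in both libraries of each mark at 6 of 38 genes in CBP 60 h, 5 in WT 60 h, 13 in CBP 0 h and 3 in WT 0 h cells (15.8%, 13.2%, 34.2% and 7.89%). Over all 19550 genes the shares were 1.01%, 1.03%, 0.854% and 0.189%. In CBP 0 h cells the longest shared stretches were 2.37 kb at IRX5, 1.94 kb at PITX1, 1.84 kb at SIX3, 0.837 kb at LHX9 and 0.828 kb at NKX3-2, a cartilage factor. In WT 0 h cells PITX1 shared 0.36 kb, NKX3-2 0.274 kb and NKX6-1 0.03 kb. PITX1 and NKX3-2 had such a stretch in all 4 conditions.

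At 60 h in CBP cells the longest were 0.617 kb at DLX5, 0.5 kb at NKX3-2, 0.411 kb at ISL1, 0.364 kb at OTX1 and 0.356 kb at PITX1. In WT 60 h cells they were 0.688 kb at ISL1, 0.517 kb at PITX1, 0.421 kb at LHX9, 0.373 kb at NKX3-2 and 0.293 kb at GBX2. The H3K27me3 lists differed in length between the conditions, as given above, and the part of this in the counts was not tested. Without H3K27me3 WT 0 h replicate 1 the count there was 8, and without H3K27me3 WT 60 h replicate 2 it was 9 in WT 60 h cells.

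Other homeobox genes and the HOX clusters are given by their counts on the lengths as listed, and their difference from the members was not tested. H3K27me3 was higher in CBP 0 h than in WT 0 h cells at 63 of 78 other homeobox genes outside the clusters and at 23 of 23 HOX cluster genes, and lower at 0 of both. H3K4me3 was lower in CBP 0 h cells at 29 of 53 and at 25 of 34 of these genes, and higher at 0 and 1. In WT 60 h against WT 0 h cells H3K4me3 rose at 18 and fell at 10 of the 53 and rose at 8 and fell at 7 of the 34. H3K27ac rose at 16 of 25 and 21 of 23 and fell at 1 and 0. In CBP 60 h against WT 60 h cells it was higher at 1 and lower at 12 of the 25, and higher at 0 and lower at 13 of the 23. Under quantile scaling the H3K27me3 counts at 0 h became 1 higher and 18 lower of 78, and 3 higher and 0 lower of 23. The H3K4me3 counts over time turned to 7 higher and 21 lower of 53, and 5 higher and 14 lower of 34.

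By its H3K4me3 lengths over the 8 libraries, GBX2 was most like DOC2B, TMEM178B and GRIA4 (Pearson r = 0.994, 0.986 and 0.98, among 13369 genes). SIX3 was most like LOC110260022, which shares its window, and then JPH3 and P2RY2 (r = 1, 0.994 and 0.982). TLX3 was most like UHRF2, PLEK2 and DYDC1 (r = 0.989, 0.985 and 0.984). These are descriptions over 8 libraries in 4 conditions, which all genes share.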

How the data were processed

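CUT&Tag was measured for 3 marks in 4 conditions with 2 libraries each, and 8 IgG samples were not analysed here. The authors deposited 1 peak list per library, made with MACS2 2.1.0 after Trimmomatic on Sscrofa11.1, per the submitters' processing notes. The aligner, its options and the control library are not given in the sources used. Read depth is unknown, so no precision from it can be stated. In the deposited lists the score column is MACS2's display score, the ratio column is the fold enrichment over MACS2's local background, and further columns hold −log10 p and −log10 q. All are relative to the peak's own library. The remaining deposited columns hold positions and, in narrow lists, the summit offset in bp. Only positions entered the comparisons; −log10 p ranked peaks within a list and −log10 q set a stricter filter.

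From these, overlapping peaks of a list were merged, and the bp under them in each gene span of the RefSeq table for Sscrofa11.1, extended by 5 kb, was summed (Python 3.11.15, pandas 2.3.3). The table gives no strand, exons or UTRs. Lengths say nothing of peak height. Each mark had 1 limma 3.58.1 fit (R 4.3.3; lmFit, eBayes with trend and robust) of its 8 libraries on log2(bp + 500), keeping genes that reached 200 bp in 2 or more libraries. A gene with a mark in only 1 group passed this filter through that group, and its call there adds nothing to the lengths. Benjamini-Hochberg adjustment ran over all genes of a contrast, with calls below 0.05. A fold change on this scale understates the change of short lengths, and where a group was at 0 only its lengths are given, except in differences between 2 effects, whose size then depends on the added 500 bp. The fit was tested on simulated data.

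The members, gene lists and marker lists were chosen with earlier results of these data known. One marker list is not reported here. Genes given per library were, per mark and contrast, the 6 members with the largest log2 change among those called whose groups did not overlap, and the 5 with the longest H3K4me3 and H3K27me3 overlap per condition. Genes outside this rule were chosen after their values were seen. Alternatives were a pseudocount of 100 bp, no filter, quantile scaling, lists of equal length, a −log10 q of 5 or more, a replicate block, 5 kb around both gene ends only, an overlap of at least 500 bp, and leaving out each library.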

Additional observations from a re-analysis of the deposited data

Results flagged for a closer look

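The effect of SGC-CBP30 at 60 h differed from its effect at 0 h, by the interaction term of the limma fit (adjusted p below 0.05), at 12 of 25 genes for H3K4me3, 4 of 12 for H3K27ac and 17 of 35 for H3K27me3. Over all genes tested it was called higher and lower at 37.9% and 3.56% for H3K4me3, 11.5% and 18.9% for H3K27ac, and 3.95% and 53.0% for H3K27me3. The values below are the difference of the 2 effects, CBP over WT at 60 h minus CBP over WT at 0 h, on the scale of log2(bp + 500). Where a group was at 0 the size depends on the added 500 bp.

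For H3K4me3 the difference was 1.46 at TLX3, 1.10 at NKX6-1, 1.04 at PRRX1, 0.86 at OTX1, 0.75 at PITX3 and 0.72 at SHOX2. At TLX3 and NKX6-1 no H3K4me3 was listed in any 60 h library, so the 60 h term was 0 and the difference restates that at 0 h. OTX1 was not called under quantile scaling (limma, adjusted p = 0.0686), and OTX1 and PITX3 were not called with lists of equal length or a −log10 q of 5 or more (0.0555 to 0.074). OTX1 was not called without WT 0 h replicate 2, CBP 0 h replicate 1 or CBP 60 h replicate 2 (limma, adjusted p of 0.0562 to 0.061).

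For H3K27ac it was 1.52 at EMX2, where the mark was listed in CBP 60 h cells and in no other group, so that EMX2 passed the filter only through them. It was 1.51 at SHOX2 and 0.78 at IRX3, both at 0 kb in the CBP 0 h libraries. SHOX2 in H3K27ac came to -0.06 with lists of equal length and with a −log10 q of 5 or more (limma, adjusted p = 0.858 and 0.849).

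For H3K27me3 it was -4.85 at PITX3, -3.92 at DLX1, -3.50 at MSX2, -3.34 at SIX3, -3.18 at EN2 and -3.06 at NKX2-1. PITX3 had 0.581 and 0 kb in CBP 60 h, 1.75 and 0.68 kb in WT 60 h, 6.46 and 5.6 kb in CBP 0 h and 0 kb in both WT 0 h libraries. The WT 0 h lists these values rest on were the shortest of the mark, at 1338 and 2660 peaks, and their part in the result was not tested. EN2 came to -1.24 with lists of equal length (limma, adjusted p = 0.118). MSX2, SIX3 and NKX2-1 were not called under quantile scaling (limma, adjusted p = 0.37, 0.148 and 0.341). Nor were they without some single libraries, with adjusted p of 0.0516 to 0.101: each lost its call without CBP 0 h replicate 1 or CBP 60 h replicate 1. The H3K27me3 count was 27 without WT 0 h replicate 2, and 6 to 11 without WT 60 h replicate 1, either CBP 0 h or either CBP 60 h library.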

How the results depend on the processing

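Of 63 results for single genes, 26 were called under every alternative that gave a value and 4 reversed, all at SHOX2 in H3K27ac. These were -0.06 for CBP against WT at 60 h and -0.06 for its difference from 0 h, each with lists of equal length and with a −log10 q of 5 or more. Counts of called genes that moved are given by mark, each beside its count in the report. For H3K4me3 the filter on q gave 4 of CBP against WT at 60 h, beside 7. For H3K27ac in WT 60 h against 0 h, a pseudocount of 100 bp, quantile scaling and the filter on q each gave 4, beside 7. In CBP against WT at 0 h, quantile scaling and lists of equal length each gave 1 and the filter on q 3, beside 5. At 60 h lists of equal length gave 2, beside 5, and for the difference of the effects 2, beside 4. For H3K27me3 in WT 60 h against 0 h, quantile scaling gave 14, lists of equal length 7, the filter on q 0 and the replicate block 2, beside 4. Quantile scaling gave 13 in CBP against WT at 0 h, beside 30. It gave 10 at 60 h, where the filter on q gave 0 (0 at an unadjusted p below 0.05 by limma), beside 4. For the difference of the effects it gave 8 and the filter on q 29, beside 17. Genes with both marks came to 2, 2, 7 and 0 in CBP 60 h, WT 60 h, CBP 0 h and WT 0 h cells with an overlap of at least 500 bp, and to 0, 0, 2 and 0 with the filter on q, beside 6, 5, 13 and 3. The filter on q left 2441 and 1233 H3K27me3 peaks in the CBP 0 h lists and 0 to 28 in the other lists of that mark. Its counts for H3K27me3 and for shared bases follow from those lists and could not test the results. The number of calls over all genes tested moved under these settings too. The cause of these shifts was not tested.

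Leaving out 1 library gave 14 to 17, 14 to 17, 4 to 8 and 10 to 13 for H3K4me3 in WT 60 h against 0 h, CBP against WT at 0 h, at 60 h, and the difference of the effects. The ranges were 4 to 6, 4 to 6, 2 to 5 and 2 to 4 for H3K27ac, and 0 to 8, 13 to 32, 0 to 5 and 6 to 27 for H3K27me3. For shared bases they were 6 to 8, 5 to 9, 13 to 17 and 3 to 8 in CBP 60 h, WT 60 h, CBP 0 h and WT 0 h cells.

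Libraries of different groups share only a replicate number. Their deviations correlated at -0.0887 to 0.183 across the group pairs, so the numbers were not taken as pairs. With the replicate as a block, 4 of 63 single-gene calls were lost, all in H3K27me3: DMBX1, OTX1 and OTX2 in WT 60 h against 0 h (limma, adjusted p = 0.0886, 0.0588 and 0.0616) and EN2 in CBP against WT at 60 h (0.0775), and the H3K27me3 count in WT 60 h against 0 h was 2. Read depth is unknown here.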
